A study of Mus musculus with 32 samples.

Results

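Gene expression in the amygdala of DMSO-injected mice after acute stress was compared with that of DMSO-injected mice at baseline. The samples were chosen by their labels alone: 5 acute stress libraries with DMSO and 4 baseline libraries with DMSO, 9 of the 32 samples of the series. All mice were labelled WT, and the labels call the tissue brain, taken as the amygdala of both sides. DMSO was the solvent control for 4-thiouridine (4sU), a uridine analogue that is built into new RNA, and it was given by stereotaxic injection into the amygdala 24 h before the RNA was extracted. Both groups therefore share the surgery, the DMSO and the alkylation of their RNA, and neither received 4sU. The labels used here give no strain, age, sex or stress procedure, and no time between the stressor and the extraction. They call the replicates separate samples without saying more, and a p-value here reflects the spread between samples of whatever kind they are. Another 10 libraries, 5 acute and 5 baseline from mice given 4sU at 100 mM in DMSO, share the fit and serve as a second comparison with no library in common.

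The amygdala joins sensory input to autonomic and hormonal output and is known for its part in fear and anxiety. A stressor activates the hypothalamus, pituitary and adrenal cortex, and the adrenal glucocorticoid enters the brain and binds the mineralocorticoid receptor (Nr3c2) and the glucocorticoid receptor (Nr3c1). The bound receptors enter the nucleus and change the transcription of genes for kinases, co-chaperones, metabolic enzymes and inhibitors of inflammation. Immediate early genes such as Fos and Arc respond to neuronal activity within minutes and fade within hours.

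The 9 libraries held 16211186 to 18148936 exon counts. Their T-to-C conversion, which 4sU would raise, was 0.0228% to 0.0318% of covered T positions in 3′ UTRs. Levels are given below as CPM, the reads of a gene relative to the library's total after TMM scaling, and values of baseline libraries 1 to 4 and of acute libraries 1 to 5 are always listed in that order. All carried Gad1, the GABA-synthesising enzyme of inhibitory neurons, at 717 to 1028 CPM, but the acute ones were unlike each other in regional markers. Slc17a7, the vesicular glutamate transporter of cortical and basolateral neurons, had 320.0, 273, 471 and 282 CPM at baseline and 67.3, 428, 15.6, 71.2 and 653 CPM after acute stress, so that acute libraries 1, 3 and 4 lay below every baseline library and library 5 above. Ttr, the transthyretin of choroid plexus, had 2803, 2763, 3026 and 2599 CPM at baseline and 2.28, 5435, 1147, 319 and 2496 CPM after acute stress, from nearly none in library 1 to more than any baseline library in library 2. The mean log2(CPM + 0.1) over 12 markers of amygdala subregions was 4.03, 4.36, 4.19 and 4.33 at baseline and 3.15, 3.49, 2.75, 3.54 and 3.56 after acute stress, lower in every acute library. The median log2 fold change of the 12 was -0.28, with 9 below 0 and 3 above. Members near 0 CPM, such as Tfap2d, weigh strongly in such a mean. Over 18 oligodendrocyte and myelin markers the mean log2(CPM + 0.1) was 8.36, 8.48, 8.25 and 8.08 at baseline and 8.55, 8.99, 9.18, 8.90 and 8.48 after acute stress, where acute library 5 was level with baseline library 2 and the others were higher. The median standard deviation of log2 CPM over genes was 0.28 in the acute group against 0.11 at baseline, 0.12 in baseline 4sU mice and 0.13 in acute 4sU mice. Of 14708 genes with a mean of at least 1 CPM, 756 spanned more than 4-fold among the acute libraries and 47 among the baseline ones. In bulk tissue, fewer cells of a type and less RNA per cell cannot be told apart.

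**Figure D1:**
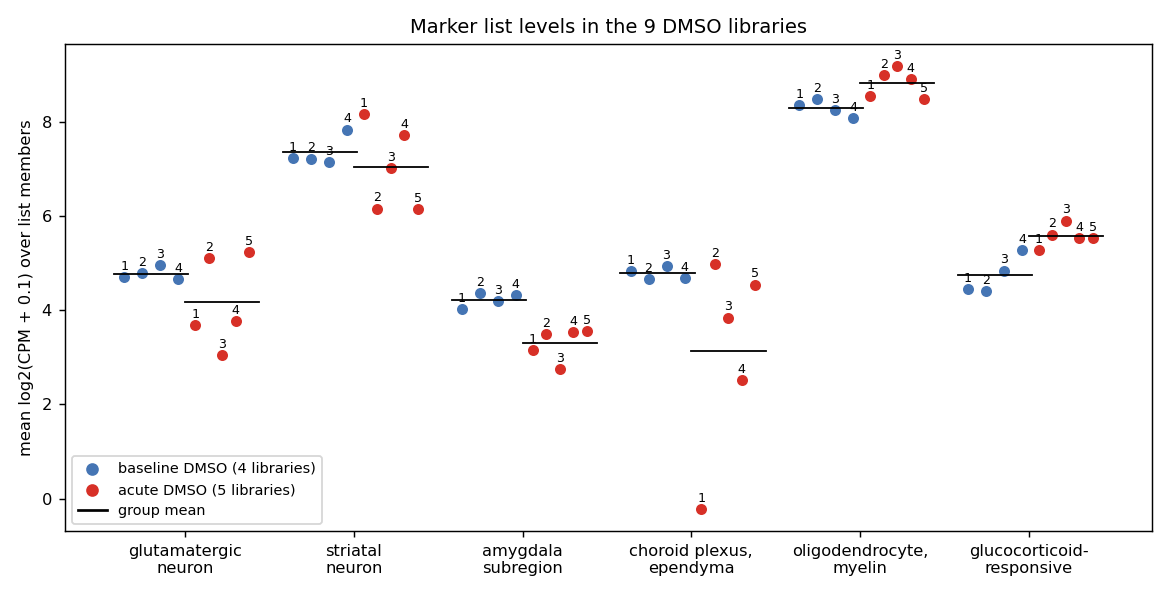
Mean log2(CPM + 0.1) over the members of 6 gene lists (vertical axis) in each DMSO library, baseline in blue and acute in red, numbered by library, with group means as black lines. Acute libraries scatter from -0.23 to 4.98 for choroid plexus and ependymal markers and from 3.05 to 5.24 for glutamatergic markers, while the glucocorticoid-responsive genes lie between 5.28 and 5.90.

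After acute stress, genes induced by glucocorticoids such as Sgk1, Tsc22d3 and Ddit4 were higher in all 5 DMSO libraries than in any of the 4 baseline ones. So were the myelin genes Mobp and Mal, the oligodendrocyte factor Olig2 and the RNA polymerase III subunit Polr3e. The neuropeptide receptors Cckbr and Npsr1, the secreted factor Bmp3 and the endothelial genes Kdr and Cldn5 were lower in all 5. Of 18 endothelial markers 3 fell and 1, Slc2a1, rose, where 1.1% of all tested genes fell and 1.41% rose.

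Across 15995 tested genes, 402 (2.51%) passed an adjusted p of 0.05 by edgeR's two-sided quasi-likelihood test with Benjamini-Hochberg adjustment between acute and baseline DMSO mice, 226 (1.41%) higher and 176 (1.1%) lower. With upper quartile scaling in place of TMM the split was 168 higher and 201 lower. At an unadjusted p under 0.05 there were 2640 of the 15995 genes in the main edgeR fit. DESeq2 called 821 of the 15995 genes and limma-voom with library weights 3180. List counts by these measures below are to be read beside these totals. The 402 genes under TMM are those said below to have risen or fallen, and log2 fold changes are given ± SE. Each SE and p rests on a spread shared by all 4 groups of the fit. The acute DMSO libraries varied most, so both can be too small for them. Because of the spread among acute libraries, a gene was called consistent only if it passed the test and every acute library lay on the same side of every baseline library. Of the 402 genes, 330 (2.06% of those tested) were consistent, 181 rises (1.13%) and 149 falls (0.932%), and in the other 72 the groups overlapped. Without regard to the test, groups did not overlap in 887 genes (5.55%), 479 higher (2.99%) and 408 lower (2.55%). The calls rest on a spread shared with the 4sU libraries: a fit of the 9 DMSO libraries alone called 4 genes (0.0256% of 15630; 1437 at an unadjusted p under 0.05). Leaving out baseline library 1, 2 or 3 lowered the 402 calls to 143, 175 or 169, and leaving out acute library 3 or 4 lowered them to 248 or 200. Without acute library 1, 2 or 5 there were 666, 906 or 716 calls. In all 19 fits without 1 library, 61 consistent rises and 48 consistent falls were called.

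The 4 genes called in the DMSO libraries alone were Polr3e and Tma16, which rose, and Cckbr and Kdr, which fell. Polr3e, a subunit of RNA polymerase III (chromosome 7, 120917744 to 120947432 in mm10), had 46, 46.05, 44.4 and 48.1 CPM at baseline and 76.8, 110.2, 94.6, 87.6 and 74.7 CPM after acute stress. The baseline libraries lay close together and every acute library was well above them, for a log2 fold change of 0.94 ± 0.09 (adjusted p = 2.9e-05). Tma16, whose yeast homologue acts in ribosome assembly (chromosome 8, 66476343 to 66486530), went from 7.47, 7.13, 6.62 and 9.03 CPM to 20.1, 21.8, 33.2, 23.02 and 20.8 CPM. Acute library 3 was the highest, the groups did not overlap, and the log2 fold change was 1.65 ± 0.16 (adjusted p = 2.9e-05). Cckbr encodes the brain receptor of the neuropeptide cholecystokinin, a peptide linked to anxiety (chromosome 7, 105425731 to 105436339). It had 14.1, 15.7, 13.1 and 14.1 CPM at baseline and 6.05, 7.96, 6.28, 7.87 and 6.5 CPM after acute stress, and the groups did not overlap. Its log2 fold change was -1.04 ± 0.11 (adjusted p = 4.8e-05). Whether this fall reflects which part of the tissue was taken was not tested. Kdr, the endothelial receptor of VEGF (chromosome 5, 75932827 to 75978455), had 18.2, 19.5, 20.3 and 19.5 CPM at baseline and 11.2, 8.02, 8.3, 8.33 and 10.05 CPM after acute stress, with all acute libraries below all baseline ones (log2 fold change -1.08 ± 0.18, adjusted p = 0.0026). In the fit of the DMSO libraries alone the adjusted p was 0.036 for Polr3e and 0.02 for each of Tma16, Cckbr and Kdr.

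Genes known to respond to glucocorticoids were higher after acute stress. Of the 28 in the list, 16 rose and 0 fell, against 1.41% of all tested genes called higher, and 15 of them were without overlap. The list's median log2 fold change was 0.82, where that of all tested genes was 0.02, and 26 of 28 members lay above 0. Without acute libraries 1, 3 and 4 the count was 18, and with glutamatergic and choroid marker levels as covariates it was 19. In edgeR's fit of the 9 libraries alone 0 of the 28 were called (19 at an unadjusted p under 0.05), while their median was 0.78. DESeq2 called 19 and limma-voom with library weights 21 in the shared fit, where 482 and 1706 of all 15995 genes were called higher. Those weights were 3.26 for acute library 4 and 0.0693 to 0.634 for the other 4 acute libraries, so the acute side of every limma-voom count given here rests mostly on library 4. The list was chosen with earlier results of these data known, so its direction is a description.

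Among kinases, co-chaperones and regulators, Sgk1, a kinase that steroid hormones induce (chromosome 10, 21882184 to 21999902), had 82.4, 68.9, 131 and 286 CPM at baseline and 384, 506, 654, 508 and 399.5 CPM after acute stress. Baseline library 4 stood above its group but below every acute library, and the mean rose 3.45-fold (log2 fold change 1.79 ± 0.29, adjusted p = 0.0029). Tsc22d3, the leucine zipper protein GILZ that restrains inflammation, had 68.6, 67.3, 80.4 and 93.4 CPM at baseline and 129, 251, 197, 166 and 145 CPM after acute stress, with no overlap (log2 fold change 1.2 ± 0.16, adjusted p = 0.00047). Zbtb16, the zinc finger factor PLZF, went from 30.2, 19.2, 54.3 and 32.04 CPM to 61.2, 56.4, 156, 82.8 and 110.1 CPM. Its acute libraries 1 and 2 lay just above baseline library 3, and it rose by 1.46 ± 0.29 on the log2 scale (adjusted p = 0.011). Fkbp5, the co-chaperone that lowers the affinity of the glucocorticoid receptor, had 39.5, 38.3, 59.96 and 81.7 CPM at baseline and 91.9, 95.8, 114, 103 and 106 CPM after acute stress. The acute libraries were tightly grouped and the baseline ones were not, with library 4 near the acute range (log2 fold change 0.89 ± 0.16, adjusted p = 0.0058). Nfkbia, the inhibitor of NF-kappaB, went from 18.3, 18.6, 19.5 and 32.2 CPM to 36.4, 62.3, 59.7, 50.9 and 45.5 CPM and did not overlap, though baseline library 4 again came close to acute library 1 (log2 fold change 1.21 ± 0.17, adjusted p = 0.00059). It was the single member called of 17 tested NF-kappaB pathway genes. Errfi1, a feedback inhibitor of the EGF receptor, had 33.4, 31.02, 34.7 and 44.96 CPM at baseline and 50.7, 69.9, 104, 78.7 and 84.5 CPM after acute stress (log2 fold change 1.11 ± 0.15, adjusted p = 0.00056).

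Metabolic members of the list also rose. Ddit4, an inhibitor of mTOR, had 45.1, 37.9, 35.2 and 74.3 CPM at baseline and 104, 143, 159, 135 and 107 CPM after acute stress, a 2.70-fold rise of the mean (log2 fold change 1.43 ± 0.18, adjusted p = 0.00032). Pdk4, the kinase that shuts pyruvate dehydrogenase, went from 8.91, 12, 11.3 and 13.99 CPM to 17.6, 25.3, 46.4, 30.8 and 29.2 CPM (log2 fold change 1.37 ± 0.23, adjusted p = 0.0038). Acute library 1 was the lowest of its group for both, yet above the baseline range. Klf15, a transcription factor of amino acid and glucose metabolism, had 33.4, 30.4, 36.6 and 41.6 CPM at baseline and 45.3, 60.6, 69.9, 55.2 and 55.2 CPM after acute stress (log2 fold change 0.69 ± 0.10, adjusted p = 0.0011). Txnip, which binds thioredoxin and limits glucose uptake, rose by 0.81 ± 0.17 (adjusted p = 0.015), with acute library 1 at 25.2 CPM and baseline library 4 at 24.6 CPM. Map3k6, a stress-activated kinase of the MAP kinase cascade, rose by 0.85 ± 0.21 (adjusted p = 0.037), and Angptl4, an inhibitor of lipoprotein lipase, by 1.02 ± 0.26 (adjusted p = 0.042). Mt2, a metal-binding protein, rose by 0.83 ± 0.21 (adjusted p = 0.04), but acute library 1 with 76.7 CPM and library 4 with 91.2 CPM lay below baseline library 4 with 96.8 CPM. Among the 12 members that did not pass were the zinc finger factor Klf9 (log2 fold change 0.52 ± 0.15, adjusted p = 0.08) and Hif3a, of the hypoxia-inducible factor family (0.93 ± 0.26, adjusted p = 0.063). Per1, a clock gene with a glucocorticoid response, had 90.9, 90.1, 90.9 and 100.3 CPM at baseline and 111, 73.6, 98.6, 90.9 and 84.6 CPM after acute stress, and its groups overlapped (log2 fold change -0.02 ± 0.09, adjusted p = 0.94).

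Baseline library 4 had the highest level of its group in 25 of the 28 genes, where it was the highest in 32.1% of all tested genes. The mean log2(CPM + 0.1) of the list was 4.45, 4.41, 4.84 and 5.27 at baseline and 5.28, 5.61, 5.90, 5.53 and 5.54 after acute stress. Baseline library 4 and acute library 1 thus differed by 0.01, and the other baseline libraries were lower. Without baseline library 4, 18 of the 28 rose.

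**Figure D2:**
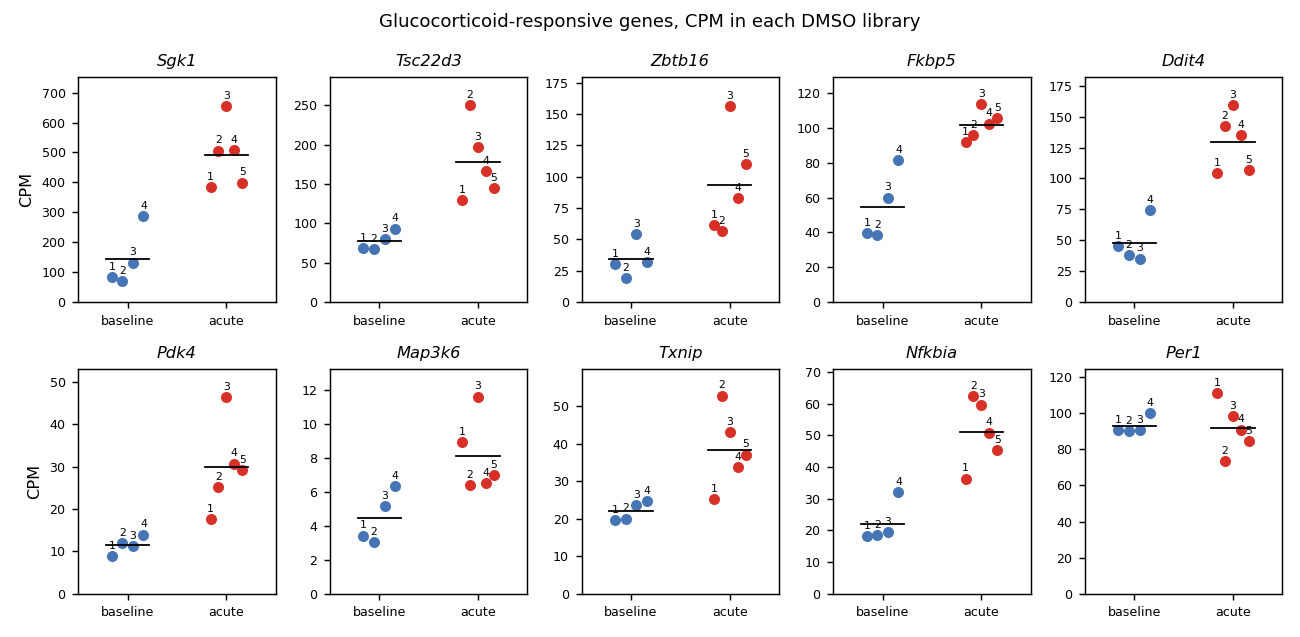
CPM (vertical axes, from 0) of 10 glucocorticoid-responsive genes in each DMSO library, baseline in blue and acute in red, numbered by library, with group means as black lines. Sgk1 runs from 68.9 to 286 CPM at baseline and from 384 to 654 CPM after acute stress, and Per1 is shown as a member whose groups overlap.

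The promoters of the consistent rises were searched for the sequence that glucocorticoid receptor dimers are known to bind, to show the sequence beside the hormone-responsive genes. The palindrome GNACANNNTGTNC, which reads the same on both strands, was sought in the 300 bases from 250 before to 50 after each gene's start (RefSeq, GRCm38.p6). It occurred in 4 of the 144 consistent rises that had a promoter in the table (2.78%), in 1 of 107 consistent falls (0.935%) and in 54 of 12561 tested genes (0.43%). The 4 rises were Sgk1, Txnip, Map3k6 and Ptpdc1, a phosphatase gene, and the first 3 of these are on the glucocorticoid list. Their matches are shown 5′ to 3′ on each gene's own strand, with the palindrome in capitals.
Sgk1: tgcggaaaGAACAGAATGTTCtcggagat
Txnip: cgctaggaGCACACCGTGTCCacgcgccc
Map3k6: gaatagggGCACAGGCTGTTCcggaagtg
Ptpdc1: cagtatttGAACAATTTGTCCaaaacaca
The Sgk1 window is chr10:21993694-21993722, where the palindrome begins 188 bases before the start that the table gives, and the Txnip window is chr3:96557777-96557805, where it begins 172 bases before. The Map3k6 window is chr4:133240629-133240657 and the Ptpdc1 window chr13:48593522-48593550, the last on the minus strand and the others on the plus strand. Ptpdc1 had 60.9, 65.3, 63.8 and 71.3 CPM at baseline and 79.5, 79, 118, 91.3 and 80.5 CPM after acute stress, with no overlap (log2 fold change 0.46 ± 0.11, adjusted p = 0.028). Within the list of 28, 25 had a promoter in the table and 5 of them (20%) held the palindrome, the other 2 being Mt1 and Fam107a, which did not pass the test. In all 6 forms of motif were searched with the results in view, and the palindrome above, of which the matches are shown, is the form with the highest ratio of its share among the rises to its share among all tested genes. Its variant AGAACANNNTGT, on either strand, was in 1 of the 144 rises (0.694%), 0 of the 107 falls and 43 of all 12561 tested genes (0.342%). The variant AGNACANNNTGT, on either strand, was in 3 rises (2.08%), 3 falls (2.8%) and 133 of all tested genes (1.06%), and every match to the first variant is also one to it. The half-site AGAACA on either strand, which can overlap a match to the palindrome in all but its first or last base, was in 15.3% of the rises and 15.2% of all tested genes. The E-box CACGTG, which is its own reverse complement, was in 13.9% of the rises and 11.1% of all, and the cyclic AMP element TGACGTCA, likewise, in 4.86% and 3.32%. These letters describe the windows and are not evidence of binding.

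The receptors themselves and the activity genes gave few calls. Nr3c1 had 114, 114, 92.2 and 110.1 CPM at baseline and 97.9, 63.8, 108, 106 and 86.4 CPM after acute stress, with overlap (log2 fold change -0.22 ± 0.11, adjusted p = 0.35), and Nr3c2 changed by 0.04 ± 0.19 (adjusted p = 0.95). Of 12 corticosteroid receptor and chaperone genes edgeR called 0 (6 at an unadjusted p under 0.05), DESeq2 1 and limma-voom 4, and the median was 0.21. Of 34 immediate early genes 1 rose, Csrnp1, a nuclear protein of the immediate early class, by 0.57 ± 0.13 (adjusted p = 0.029) with overlapping groups. There were 9 at an unadjusted p under 0.05 in edgeR, and DESeq2 called 2 and limma-voom 12, beside 2640, 821 and 3180 of all 15995 tested genes. Npas4, an activity-dependent transcription factor, had 12.8, 11.2, 10.4 and 14.6 CPM at baseline and 14.1, 6.59, 8.65, 5.48 and 4.53 CPM after acute stress, with overlap (log2 fold change -0.64 ± 0.25, adjusted p = 0.19). With the marker covariates its log2 fold change was -1.16 (adjusted p = 0.0036) and that of the zinc finger factor Egr1 -1.08 (adjusted p = 0.0032), against -0.46 ± 0.27 for Egr1 without them (adjusted p = 0.41). Fos had 10.4, 12, 6.45 and 8.85 CPM at baseline and 11.2, 8.65, 13.3, 6.24 and 7.15 CPM after acute stress, and Arc 52.7, 50.9, 39.7 and 51.7 CPM and 51.8, 41.3, 36.04, 29.95 and 36.5 CPM, so that the groups of both overlapped. The orphan receptor Nr4a1 was lower in every acute library, with 47.9, 52.3, 38.99 and 56.6 CPM at baseline and 35.7, 34.3, 37.4, 29.9 and 25.8 CPM after acute stress, and missed the threshold (log2 fold change -0.59 ± 0.17, adjusted p = 0.069). Of 19 clock genes edgeR and DESeq2 called 0 (1 at an unadjusted p under 0.05) and limma-voom 4. Crh, the corticotropin-releasing hormone, had 8.69, 9.13, 6.79 and 10.1 CPM at baseline and 8.39, 8.42, 5.57, 7.69 and 8.19 CPM after acute stress (log2 fold change -0.18 ± 0.16, adjusted p = 0.62). Its binding protein Crhbp, which takes the peptide out of action, fell: it had 8.97, 9.73, 13.6 and 11.3 CPM at baseline and 4.62, 8.36, 4.74, 5.24 and 8.74 CPM after acute stress, and acute libraries 2 and 5 lay just below the baseline range (log2 fold change -0.78 ± 0.19, adjusted p = 0.031). Without acute libraries 1, 3 and 4 its log2 fold change was -0.35 (adjusted p = 0.19), and with the marker covariates it was -0.48 (adjusted p = 0.025). It was the single call among 29 tested stress peptide and receptor genes.

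The largest consistent rises included further genes, of which Arrdc2 and Cdkn1a are also on the glucocorticoid list. Ada, adenosine deaminase, had the largest at a mean of 1 CPM or more, symbols of predicted genes left out: 1.16, 0.973, 1.11 and 2.51 CPM at baseline and 3.71, 8.08, 9.72, 5.94 and 5.68 CPM after acute stress, with baseline library 4 above the rest of its group (log2 fold change 2.21 ± 0.30, adjusted p = 0.00059). Arrdc2, an arrestin-domain gene, went from 13.4, 13.9, 20.4 and 38.6 CPM to 48.05, 96.99, 86.6, 69.2 and 55.9 CPM, again with baseline library 4 high but below the acute range (log2 fold change 1.73 ± 0.26, adjusted p = 0.0011). Wnt3, a secreted Wnt ligand, had 4.65, 4.16, 4.56 and 5.74 CPM at baseline and 10.2, 16.5, 16.5, 11.8 and 9.83 CPM after acute stress, with a clear gap between the groups (log2 fold change 1.44 ± 0.20, adjusted p = 0.00061). Tmem252 rose by 1.76 ± 0.33 (adjusted p = 0.0081), Plekhf1, a lipid-binding protein of endosomes, by 1.45 ± 0.19 (adjusted p = 0.00055) and the small GTPase gene Arl4d by 1.30 ± 0.26 (adjusted p = 0.012). Low-level rises were those of the interleukin 7 receptor Il7r, from 0.359 to 0.779 CPM at baseline and from 0.974 to 2.73 CPM after acute stress, and of the integrin Itgad, where acute library 2 with 2.12 CPM lay just above baseline library 4 with 2.03 CPM. Dapk2, a calmodulin-regulated kinase, went from 0.775, 1.08, 1.22 and 0.777 CPM to 2, 2.06, 3.38, 2.91 and 1.26 CPM (log2 fold change 1.26 ± 0.27, adjusted p = 0.018). Without acute libraries 1, 3 and 4 the log2 fold change was 0.77 for Dapk2 (adjusted p = 0.091) and 0.72 for Itgad (adjusted p = 0.13). With the marker covariates it was 1.04 for Dapk2 (adjusted p = 0.02) and 1.02 for Itgad (adjusted p = 0.026). Cdkn1a, the cell cycle inhibitor p21, had 9.52, 10.4, 13.96 and 30.4 CPM at baseline and 33.4, 32.9, 72.1, 49.7 and 38.5 CPM after acute stress, and baseline library 4 came close to the acute range (log2 fold change 1.5 ± 0.29, adjusted p = 0.0087). Of 19 p53 target genes 3 rose and 0 fell: Cdkn1a, Trp53inp1 (0.62 ± 0.15, adjusted p = 0.029) and Sesn1 (0.37 ± 0.07, adjusted p = 0.0086). The list's median was 0.11, and 1.41% of all tested genes were called higher.

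The largest consistent falls, by the same rule, included the following genes. Bmp3, an atypical bone morphogenetic protein (chromosome 5, 98854415 to 98884053), had 11.7, 18.97, 13.6 and 15.9 CPM at baseline and 4.79, 1.26, 1.6, 5.48 and 2.68 CPM after acute stress. The highest acute library, at 5.48 CPM, stayed well under the lowest baseline library, and the log2 fold change was -2.25 ± 0.32 (adjusted p = 0.00078). Npsr1, the receptor of neuropeptide S (chromosome 9, 24098018 to 24316398), had 2.93, 5.78, 4.06 and 5.5 CPM at baseline and 1.65, 0.802, 0.711, 1.86 and 1.26 CPM after acute stress (log2 fold change -1.85 ± 0.27, adjusted p = 0.00081). C1ql3, a secreted C1q-like protein of synapses (chromosome 2, 13001887 to 13010864), had 69.2, 97.7, 82.05 and 80.9 CPM at baseline and 29.4, 23.8, 12.5, 31.4 and 46.9 CPM after acute stress. Its lowest value was in acute library 3, the library lowest in glutamatergic markers, and its highest acute value in library 5, the highest in them (log2 fold change -1.52 ± 0.26, adjusted p = 0.0036). Ccn3, a matricellular protein, showed the same order at its ends, with 39.03, 55.8, 49.3 and 45.6 CPM at baseline and 10.4, 12.9, 5.57, 14.2 and 21.8 CPM after acute stress (log2 fold change -1.86 ± 0.30, adjusted p = 0.0026). With both marker levels as covariates the log2 fold change was -1.45 for C1ql3 (adjusted p = 0.00054) and -1.66 for Ccn3 (adjusted p = 0.0016). Without acute libraries 1, 3 and 4 it was -1.22 for C1ql3 (adjusted p = 0.011) and -1.44 for Ccn3 (adjusted p = 0.014). Pappa2, a protease of IGF-binding proteins, had 4.98, 4.05, 4.39 and 5.02 CPM at baseline and 1.94, 0.516, 1.96, 2.21 and 2.24 CPM after acute stress (log2 fold change -1.37 ± 0.26, adjusted p = 0.0082). The kinase gene Pkn3 fell by 1.21 ± 0.24 and the phosphatase gene Acp7 by 1.18 ± 0.26 on the log2 scale (adjusted p = 0.0092 and 0.021).

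Some of these falls were of genes that mark amygdala subregions. Of 12 amygdala subregion markers 4 fell (1.1% of all tested genes were called lower): Bmp3, Npsr1, the retinoic acid-degrading enzyme Cyp26b1 and the transcription factor Tfap2d. Cyp26b1 had 48.3, 72.9, 45.1 and 49.6 CPM at baseline and 37.03, 20.9, 26.6, 31.6 and 17.04 CPM after acute stress (log2 fold change -1.02 ± 0.21, adjusted p = 0.014). Tfap2d had 1.22, 1.95, 1.61 and 2.51 CPM at baseline and 0.228, 0.115, 0, 0.699 and 0 CPM after acute stress, and was thus near or at 0 in the acute libraries (adjusted p = 0.0077). The other 8 members did not pass: Prkcd, a marker of the lateral central amygdala, had 38.6, 43.3, 42.1 and 45.8 CPM at baseline and 50.8, 75.9, 50.1, 59.2 and 41.01 CPM after acute stress, while Rspo2, a marker of basolateral neurons, had 8.8, 10.1, 8.73 and 9.51 CPM and 4.51, 7.33, 1.84, 3.15 and 7.32 CPM. The list's median log2 fold change was -0.28, with 9 of 12 members below 0. Without acute libraries 1, 3 and 4 there were 5 that fell and 1 that rose, where 944 of 16267 tested genes were called lower and 1447 higher. Whether the 4 falls reflect which part of the tissue was taken was not tested, and dissection and stress cannot be told apart for genes that mark a region.

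**Figure D3:**
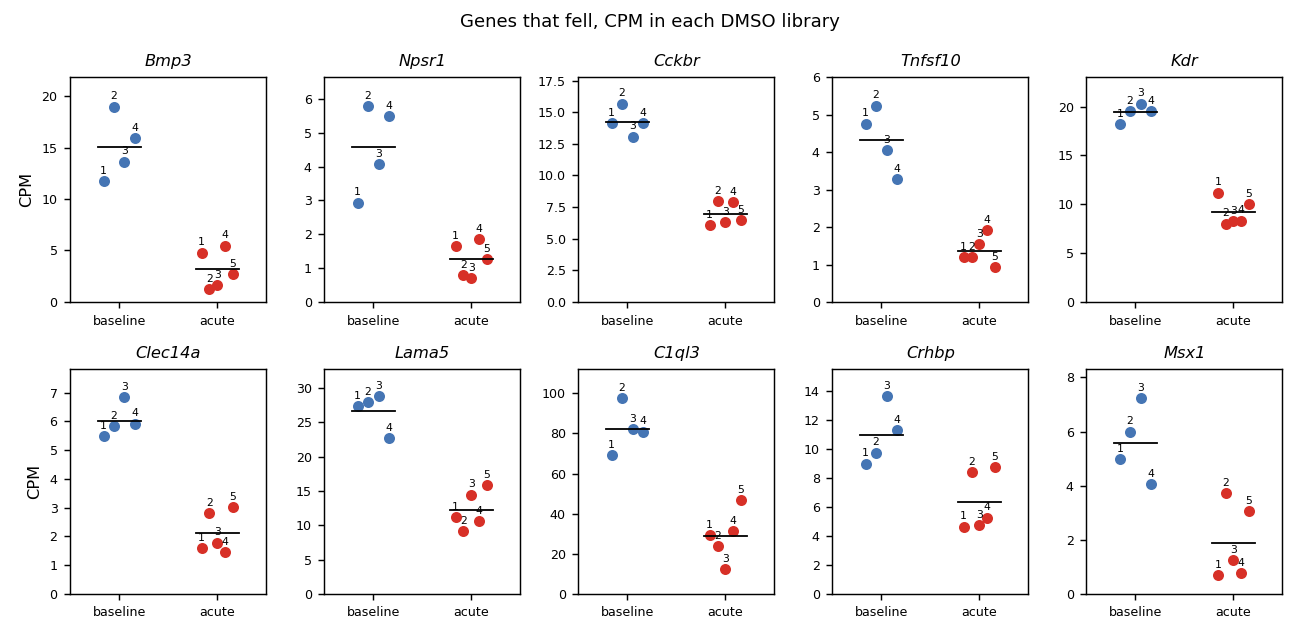
CPM (vertical axes, from 0) of 10 genes that fell, in each DMSO library, baseline in blue and acute in red, numbered by library, with group means as black lines. In every panel all 5 acute points lie below all 4 baseline points, with a wide gap for Cckbr, Kdr and Lama5 and a narrow one for Crhbp and Msx1.

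BMP and vascular genes made up a further group. Of 24 BMP and TGF-beta signalling genes 5 fell and 0 rose, all 5 without overlap, where 1.1% of all tested genes were called lower and 0.932% were consistent falls. The list's median was -0.11. Beside Bmp3, the ligand Bmp6 had 15.4, 14.2, 18.1 and 15.1 CPM at baseline and 7.76, 11.2, 10.8, 8.1 and 11.1 CPM after acute stress (log2 fold change -0.68 ± 0.12, adjusted p = 0.005). The ligand Bmp7 had 10.02, 9.73, 10.01 and 10.5 CPM at baseline and 5.59, 6.65, 7.82, 6.41 and 7.75 CPM after acute stress (log2 fold change -0.56 ± 0.13, adjusted p = 0.03). Msx1, a homeobox gene that BMP signals induce, had 4.98, 6, 7.23 and 4.07 CPM at baseline and 0.685, 3.72, 1.24, 0.758 and 3.06 CPM after acute stress (log2 fold change -1.55 ± 0.37, adjusted p = 0.029). The co-receptor Eng, which endothelium expresses, fell by 0.58 ± 0.15 (adjusted p = 0.048). Acute libraries 1 and 4, the lowest in choroid plexus and ependymal markers with means of -0.23 and 2.51, were also the lowest for Bmp6, Bmp7 and Msx1, but not for Bmp3. The immunoglobulin-domain gene Igfn1 was also lowest in acute libraries 1 and 4 (0.228, 3.15, 1.01, 0.466 and 2.79 CPM after acute stress against 6.2, 5.03, 6.45 and 4.84 CPM at baseline). The retinoid transporter Abca4 was likewise lowest there, with 2, 7.85, 7.23, 3.09 and 11.6 CPM after acute stress and 18.3, 14.6, 18.9 and 11.7 CPM at baseline. Without acute libraries 1, 3 and 4 the log2 fold change was -0.72 for Msx1 (adjusted p = 0.093), -0.92 for Igfn1 (adjusted p = 0.091) and -0.71 for Abca4 (adjusted p = 0.046). With the marker covariates it was -0.93 for Msx1 (adjusted p = 0.015), -1.14 for Igfn1 (adjusted p = 0.037) and -0.72 for Abca4 (adjusted p = 0.021). For Bmp6 it was -0.49 without those libraries (adjusted p = 0.019) and -0.50 with the covariates (adjusted p = 0.0073).

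Of 18 endothelial markers 3 fell and 1 rose, and the list's median was -0.17. Of all tested genes 1.1% were called lower and 1.41% higher. Cldn5, the tight junction claudin of brain endothelium, had 28.2, 27.99, 28.3 and 28.8 CPM at baseline and 17.2, 22.9, 9.96, 10.02 and 11.1 CPM after acute stress (log2 fold change -0.99 ± 0.21, adjusted p = 0.016). Baseline libraries differed by under 1 CPM, and all acute ones were lower. Clec14a, an endothelial lectin, had 5.48, 5.84, 6.84 and 5.92 CPM at baseline and 1.6, 2.81, 1.78, 1.46 and 3 CPM after acute stress (log2 fold change -1.49 ± 0.28, adjusted p = 0.0079), and Kdr was the third fall. Slc2a1, the glucose transporter of the blood-brain barrier, rose, with 111, 108, 125 and 153 CPM at baseline and 177, 216, 206, 169.8 and 156 CPM after acute stress (log2 fold change 0.57 ± 0.14, adjusted p = 0.034). Lama5, a laminin chain of basement membranes (chromosome 2, 180176373 to 180225859), had 27.3, 27.99, 28.8 and 22.7 CPM at baseline and 11.2, 9.17, 14.5, 10.5 and 15.8 CPM after acute stress, with no overlap (log2 fold change -1.13 ± 0.15, adjusted p = 0.00039). The collagen IV chain Col4a4 fell by 1.60 ± 0.31 (adjusted p = 0.0088), with 0.514 CPM in acute library 1 and 3.55 CPM in acute library 5. Its log2 fold change was -1.03 with the marker covariates (adjusted p = 0.0092) and -0.98 without acute libraries 1, 3 and 4 (adjusted p = 0.027). From 3′ UTR reads it was -1.15 (adjusted p = 0.23). The pericyte receptor Pdgfrb fell by 0.56 ± 0.10 (adjusted p = 0.0079) and the Notch ligand Jag1 by 0.60 ± 0.13 (adjusted p = 0.021). The last was the single call of 14 Notch pathway genes, 12 of which lay below 0 (median -0.25).

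Immune genes gave few calls. Tnfsf10, the apoptosis-inducing ligand TRAIL, had 4.76, 5.24, 4.06 and 3.29 CPM at baseline and 1.2, 1.2, 1.54, 1.92 and 0.928 CPM after acute stress, with every acute library below 2 CPM (log2 fold change -1.67 ± 0.22, adjusted p = 0.00039). Gpr84, a fatty acid receptor of microglia, fell by 1.39 ± 0.34 (adjusted p = 0.036) and was the single call among 19 microglia and macrophage markers. Of 26 interferon-stimulated genes 1 fell, Gbp4, whose groups overlapped (4.76, 12.1, 4.45 and 2.99 CPM at baseline, 1.83, 2.01, 1.6, 3.67 and 0.874 CPM after acute stress), and 22 lay below 0 with a median of -0.31. Their mean log2(CPM + 0.1) was 3.21 in baseline library 4 and 2.43 to 2.49 in the other baseline libraries. Of 14 antigen presentation genes edgeR and DESeq2 called 0 (1 at an unadjusted p under 0.05) and limma-voom 3. Of 19 tested injury genes edgeR called 0 (5 at an unadjusted p under 0.05) and the other tools 2 each.

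Of 18 oligodendrocyte and myelin markers 10 rose and 0 fell, 6 of them without overlap, where 1.41% of all tested genes were called higher and 1.13% were consistent rises. All 18 lay above 0, as did 53.9% of all tested genes, and their median was 0.60. Mobp, a myelin structural protein, had 1979, 2286, 1966 and 1926 CPM at baseline and 2639, 3742, 4605, 3706 and 2713 CPM after acute stress (log2 fold change 0.77 ± 0.15, adjusted p = 0.0081). Mbp, myelin basic protein, had 5789, 6425, 5540.2 and 5195 CPM at baseline and 7205, 10274, 10397, 8908 and 6594 CPM after acute stress, with library 5 just above the baseline range (log2 fold change 0.60 ± 0.13, adjusted p = 0.015). Cldn11, the claudin of myelin, rose by 0.73 ± 0.14 and Mal, a myelin proteolipid, by 0.71 ± 0.13 (adjusted p = 0.0086 and 0.0073). Of 13 precursor markers 4 rose: the lineage factors Olig2 (0.71 ± 0.10, adjusted p = 0.00061) and Olig1 (0.67 ± 0.13, adjusted p = 0.0082), Bcas1, and Gpr17, a receptor of maturing oligodendrocytes. Olig2 had 45.6, 48.2, 47.8 and 42.7 CPM at baseline and 71.2, 69.3, 93.8, 81.3 and 61.4 CPM after acute stress, a range that did not meet the baseline one. With the marker covariates 13 of the 18 myelin genes rose, where 1408 of all 15995 tested genes were called higher, against 226 without covariates. Without acute libraries 1, 3 and 4 there were 9 myelin genes that rose, where 1447 of 16267 tested genes were called higher. In edgeR's fit of the 9 DMSO libraries alone there were 0 (12 at an unadjusted p under 0.05), with a median of 0.57. The share of white matter in a dissection and the myelin RNA per cell cannot be told apart.

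Of 17 astrocyte markers 3 rose and 1 fell, where 1.41% of all tested genes were called higher and 1.1% lower. Glul, glutamine synthetase, a known glucocorticoid target, had 1291, 1315, 1447 and 1465 CPM at baseline and 1694, 2020.5, 2431, 2019.9 and 1842 CPM after acute stress (log2 fold change 0.54 ± 0.09, adjusted p = 0.0022). The glycolytic enzyme gene Aldoc rose by 0.33 ± 0.08 (adjusted p = 0.029) and the connexin gene Gjb6 by 0.60 ± 0.12 with overlap (adjusted p = 0.0087). Sox9, the factor that specifies astrocytes, fell from 53.97, 42.6, 54.8 and 42.7 CPM to 25.4, 33.6, 28.4, 28.3 and 33.9 CPM (log2 fold change -0.70 ± 0.13, adjusted p = 0.0086), with all acute libraries below all baseline ones. Gfap had 693, 601, 801 and 1021 CPM at baseline and 519, 936, 985, 744 and 891 CPM after acute stress, and its groups overlapped.

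The neuronal and choroid marker lists gave no calls in edgeR. Of 16 glutamatergic markers 0 were called (5 at an unadjusted p under 0.05, 0 by DESeq2), and limma-voom called 11. Acute library 4, which has most of the acute weight there, was itself low in both kinds of marker, with 71.2 CPM of Slc17a7 and 319 CPM of Ttr. Of 17 choroid plexus and ependymal markers 0 were called (7 at an unadjusted p under 0.05, 0 by DESeq2, 15 by limma-voom), and 16 lay below 0 with a median of -0.77. Of 17 GABAergic markers 0 were called (4 at an unadjusted p under 0.05, 1 by DESeq2, 6 by limma-voom), and of 16 striatal markers 0 by any of these tools or at an unadjusted p under 0.05. Of 19 hypothalamic or thalamic markers edgeR called 0 (6 at an unadjusted p under 0.05), DESeq2 3 and limma-voom 4. These had a mean log2(CPM + 0.1) of 1.11, 1.23, 0.93 and 1.03 at baseline and 1.30, 1.79, 1.26, 1.52 and 1.98 after acute stress, higher in every acute library, with a median log2 fold change of 0.40. Bdnf, a growth factor of glutamatergic neurons, had 8.97, 7.13, 12.3 and 9.45 CPM at baseline and 3.02, 22.7, 2.31, 2.74 and 24.2 CPM after acute stress: libraries 2 and 5 were above and libraries 1, 3 and 4 below every baseline library. Cplx1, a presynaptic regulator of vesicle fusion, was the single call among 20 presynaptic genes and rose from 489.6, 448, 517 and 461 CPM to 559.7, 804, 627, 641 and 618 CPM (log2 fold change 0.44 ± 0.09, adjusted p = 0.011). All 39 oxidative phosphorylation genes and 34 of 35 ribosomal protein genes lay above 0, with medians of 0.25 and 0.22, and edgeR called 0 of either (10 and 1 at an unadjusted p under 0.05), DESeq2 1 of each and limma-voom 2 of each. Their mean log2(CPM + 0.1) was highest in acute library 2, at 7.68 and 7.99, and this was also the library with the most 3′ UTR reads, 53.4 per 100 exon counts against 44.6 to 46.3 in the other 8. The part of that library's RNA in these medians was not tested.

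In mice given 4sU, whose libraries share none with the DMSO mice, acute stress changed 43 genes (0.269%), 33 higher (0.206%) and 10 lower (0.0625%). This count was 27 or 25 without baseline 4sU library 2 or 5, and 92 without acute DMSO library 2, which shares its fit. Of the 181 consistent rises, 167 (92.3%) had a log2 fold change above 0 in 4sU mice, where 58.1% of all genes above 0 in DMSO mice did. Of the 33 that rose in 4sU mice, 27 were consistent rises in DMSO mice, which is 81.8% of the 33 and 14.9% of the 181. The median log2 fold change of the 181 was 0.50 in DMSO and 0.18 in 4sU mice. These rises, and the falls below, were selected by their DMSO values, which alone favours a median nearer 0 in 4sU mice. Among the glucocorticoid-responsive genes 13 of 28 rose in 4sU mice, 12 of them in both arms, and the medians were 0.82 and 0.81. Sgk1 changed by 1.79 ± 0.29 in DMSO and 1.57 ± 0.27 in 4sU mice, Ada by 2.21 ± 0.30 and 1.81 ± 0.29, and Nfkbia by 1.21 ± 0.17 and 1.19 ± 0.15. Other rises lay further apart and were not called in 4sU mice. Polr3e changed by 0.94 ± 0.09 in DMSO and 0.35 ± 0.09 in 4sU mice, and Tma16 by 1.65 ± 0.16 and 0.70 ± 0.16. Zbtb16 changed by 1.46 ± 0.29 and 0.66 ± 0.27, and Dapk2 by 1.26 ± 0.27 and -0.09 ± 0.27.

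For the falls, the medians of both arms lay further apart than for the rises. Of the 149, 113 (75.8%) lay below 0 in 4sU mice, where 56.1% of all genes below 0 in DMSO mice did, 6 were called there, and the medians were -0.69 in DMSO and -0.11 in 4sU mice. Tnfsf10 changed by -1.67 ± 0.22 in DMSO and -1.18 ± 0.23 in 4sU mice, and Sox9 by -0.70 ± 0.13 and -0.65 ± 0.13, called in each. Bmp3 changed by -2.25 ± 0.32 and -0.04 ± 0.28, Npsr1 by -1.85 ± 0.27 and 0.16 ± 0.23, Cckbr by -1.04 ± 0.11 and -0.19 ± 0.10, and C1ql3 by -1.52 ± 0.26 and -0.04 ± 0.24, none called in 4sU mice. The myelin list had a median of 0.60 in DMSO and 0.05 in 4sU mice, with 10 and 0 members called higher. When the DMSO effect was tested against the 4sU effect, edgeR called 0 genes (0.0%). There were 916 at an unadjusted p under 0.05, and other settings called 20 with DESeq2, 165 with the marker covariates and 355 with limma-voom with library weights. It was 1, 4 or 12 without acute DMSO library 2, 4 or 5. The smallest adjusted p of that test, 0.13, belonged to Cckbr and Npsr1. A different response in the 2 arms is therefore not shown for any single gene by the main test, and the counts depended on how the spread of the acute DMSO libraries was treated.

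**Figure D4:**
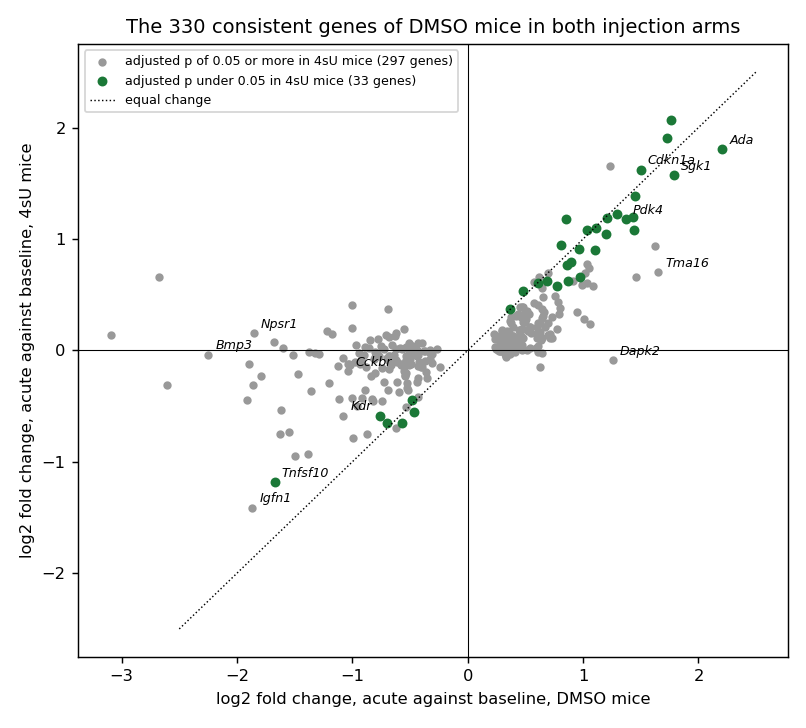
Log2 fold change of acute against baseline in DMSO mice (horizontal axis) and in 4sU mice (vertical axis) for the 330 consistent genes of DMSO mice, also those under 1 CPM, with the 33 called in 4sU mice in green and equal change as a dotted line. The rises spread along and below the dotted line, and most falls lie near 0 on the vertical axis. Selection by the DMSO values favours points nearer 0 on the vertical axis than on the horizontal one.

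Reads counted in 3′ UTR intervals of the same libraries gave the same direction for 173 of 174 consistent rises and 115 of 119 consistent falls that could be tested. Of these, 76 rises and 42 falls passed there. This readout is from the same RNA and is no independent sample.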

How the data were processed

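Exon counts per gene symbol were taken as the authors deposited them, whole numbers with no normalization, and each column was tied to the sample whose label carries its name. Tools listed in the submitters' processing notes, without role or order, are featureCounts 2.0.1, SAMtools 1.9, HISAT2 2.1.0 and cutadapt 3.1, with the mm10 build. How featureCounts treated strand and multiply matched reads is not given in the sources used, which leaves antisense, overlapping and paralogous genes uncertain. The authors also deposited read, covered T and conversion counts per 3′ UTR interval, which the file headers trace to slamdunk 0.4.3.

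Counts of 19 baseline and acute libraries in 4 groups were fitted together in edgeR 4.0.16 (R 4.3.3) with TMM scaling, filterByExpr and robust quasi-likelihood dispersions, and 15995 of 25239 genes passed the filter. Alternatives used limma 3.58.1 and DESeq2 1.42.0, other scalings and filters, marker covariates, a replicate block and omitted libraries. The edgeR script was first tested on simulated data in which all groups had the same spread for a gene. The acute DMSO libraries varied more, so that test cannot show how the calls fare under unequal spread. List levels are means of log2(CPM + 0.1). Tables and figures used Python 3.11.15, pandas 2.3.3, numpy 2.4.6 and matplotlib 3.10.9. Promoters are those of RefSeq (GRCm38.p6), in which 6 motif forms were searched after the calls were known.

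The comparison, the 36 gene lists and the rule for named genes were chosen with earlier results of these data known. Named genes are the 15 largest consistent rises and 15 largest consistent falls at a mean of 1 CPM or more without symbols of predicted genes, genes called in the 9 DMSO libraries alone, fixed genes, and up to 4 members per list with the smallest p. Other members of the glucocorticoid, amygdala and myelin lists, Eng and Ptpdc1 were named after their values were seen. Libraries of chronic stress and of auditory cortex were not used, except the chronic ones in 1 alternative.

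Replicate numbers shared by baseline and acute DMSO libraries did not pair them: deviations of same-numbered libraries correlated at -0.11, -0.03, -0.06 and 0.14.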

Additional observations from a re-analysis of the deposited data

Results flagged for a closer look

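In groups of 4 or 5 libraries the highest or lowest library was checked against the others (Dixon's test at 95%) for gene lists, named genes and library measures, 170 group checks in all. Of these, 21 stood out, where chance flags about 1 in 20.

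Baseline library 4 stood apart from its group most often. Its mean log2 CPM was low at 3.87 for Notch genes. It was high at 5.604 for heat shock and unfolded protein genes, 7.84 for striatal markers and 3.21 for interferon-stimulated genes. It was also the high library of its group for Ada at 2.51 CPM, Arl4d at 29.2 CPM, Nfkbia at 32.2 CPM and Per1 at 100.3 CPM.

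Acute library 2 stood apart with a mean log2 CPM of 5.95 for heat shock and unfolded protein genes, 3.33 for antigen presentation genes, 7.68 for oxidative phosphorylation genes and 7.99 for ribosomal protein genes. It had 53.4 3′ UTR reads per 100 exon counts, and the lowest Pappa2 of its group at 0.516 CPM.

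Acute library 3 was the outlying library for Tma16 at 33.2 CPM, Crh at 5.57 CPM and the stress peptide list at 3.41, and acute library 5 for the mineralocorticoid receptor Nr3c2 at 107 CPM. Baseline library 3 was low for Nr3c1 at 92.2 CPM and for Arc at 39.7 CPM, and baseline library 2 was high for Acp7 at 4.86 CPM. No cause was tested for any of these.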

How the results depend on the processing

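The 402 changed and 330 consistent genes became 4 and 4 in the 9 DMSO libraries alone, 194 and 94 there with marker covariates, 2431 and 554 with the covariates in the shared fit, 3180 and 671 by limma-voom with library weights, 821 and 529 by DESeq2 and 153 and 128 from 3′ UTR reads. Without acute libraries 1, 3 and 4 there were 2391 and 2077, and without 1 and 2, an alternative added after seeing the data, 1227 and 1114. With 1 library left out the changed genes ranged from 143 to 906 and the consistent genes from 140 to 743; baseline libraries 1, 2 and 3 and acute library 4 lowered the latter most, to 140, 170, 160 and 188. With the replicate number as a block, a pairing the data did not bear out, 311 genes changed.

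Glucocorticoid-responsive genes that rose numbered 16, then 0 in the 9 libraries alone, 8 there with covariates, and 11 to 18 with 1 library left out. The 0 genes that differed between arms became 165 with covariates, 313 without acute libraries 1, 3 and 4, 355 by limma-voom, 20 by DESeq2, and 0 to 12 with 1 library left out. The 43 genes of the 4sU arm became 67 in a fit of all 26 amygdala libraries, 97 with covariates, 84 without acute DMSO libraries 1, 3 and 4, 102 without 1 and 2, 130 by limma-voom, 94 by DESeq2, and 25 to 92 with 1 library left out. Bdnf reversed to -1.44 by limma-voom with library weights (adjusted p = 0.0094). For the named genes, 6243 of 6865 recomputed values kept direction and side of the threshold, 339 lost and 282 gained a call. The causes were not tested. Total counts of the 9 libraries ranged from 16211186 to 18148936.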

Other observations

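Several other gene groups were measured in the DMSO libraries and gave few calls. Of all 15995 tested genes edgeR called 402 (2640 at an unadjusted p under 0.05), DESeq2 821 and limma-voom 3180. Of 17 FoxO and insulin signalling genes 1 rose, Bcl6, a transcriptional repressor, with a log2 fold change of 0.51 ± 0.09 (edgeR, adjusted p = 0.0076) and no overlap between groups. Of 18 VEGF and hypoxia genes Slc2a1 rose and Kdr fell. Of 23 heat shock and unfolded protein genes edgeR called 0 (3 at an unadjusted p under 0.05), DESeq2 1 and limma-voom 3, and the median was 0.13. Of 18 cholesterol synthesis genes edgeR called 0 (6 at an unadjusted p under 0.05), DESeq2 3 and limma-voom 5, and 13 lay above 0, among them Cyp51 at 0.40 ± 0.11 (adjusted p = 0.057). Of 22 postsynaptic genes edgeR and DESeq2 called 0 (0 at an unadjusted p under 0.05), limma-voom 2, and 17 lay below 0. Of 18 proliferation genes edgeR called 0 (2 at an unadjusted p under 0.05), DESeq2 1 and limma-voom 2. Of 12 pericyte and smooth muscle markers Pdgfrb fell. Of 15 meningeal and fibroblast markers 1 fell, Bmp6, and 14 lay below 0 with a median of -0.31. Their mean level in acute library 1, at 2.66, was below the baseline range of 3.88 to 4.07. Of 12 blood cell markers 1, Alas2, passed the filter on low counts and was not called. Of 4 tested sex-linked genes 0 were called by edgeR, DESeq2 or limma-voom, and 0 had an unadjusted p under 0.05.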
